A study of Homo sapiens with 15 samples.

Results

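Cells of H1299, a human cell line long established from a lung carcinoma of the non-small cell type, were compared after 12 h in serum-free RPMI medium with 4 mM glutamine and no glucose and after 12 h in the same medium with neither nutrient. The comparison holds 6 of the 15 libraries of the series, 3 with glutamine alone and 3 with neither, chosen by their labels and not by any measured value. All libraries came from cells that had spent 24 h in full medium with 5% serum and were washed before the change of medium, so every group here was also without serum for 12 h. The other 9 libraries came from cells with 5 mM glucose, with 5 mM glucose and 4 mM glutamine, or with 5 mM glucose and 4 mM NH4Cl. They share the estimate of spread, and the glucose media serve below as reference points. The labels speak of triplicate cells and name no culture day. The spread behind each p-value is pooled over the 3 samples of every medium in the series and may be technical. Small SEs and p-values below may therefore not reflect differences between separate cultures.

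Glutamine feeds the citric acid cycle through glutamate and gives its amide nitrogen to nucleotides, amino sugars and asparagine, while glucose supplies glycolysis and the sugars of N-linked glycans. Cells that cannot fold their proteins call on separate programs. The heat shock factor HSF1 drives chaperones of the cytosol, and the sensors IRE1, PERK and ATF6 drive the unfolded protein response in the lumen of the endoplasmic reticulum (ER). PERK shares its target eIF2α with GCN2, the sensor of uncharged tRNA, and both raise translation of ATF4, a factor that activates genes of amino acid supply.

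Compared with neither nutrient, glutamine alone went with lower cytosolic heat shock genes and immediate early genes and with higher ER chaperones and many ATF4 targets. HSPA5, the main ER chaperone, was 5.97-fold higher (log2 change 2.58 ± 0.015, SE, 3 libraries each), and HSPA6, a strictly inducible HSP70 gene, was 21.2-fold lower (-4.41 ± 0.023). Genes of DNA replication, mitosis, the proteasome and nuclear-encoded respiration were mostly lower, and 11 of the 13 protein genes of the mitochondrial genome were higher under TMM. Of 16889 genes that passed the filter on low counts, 12302 (72.8%) were called by edgeR's quasi-likelihood test at a Benjamini-Hochberg adjusted p under 0.05. Of these, 6254 (37.0%) were higher and 6048 (35.8%) lower with glutamine. Of all 16889 genes, 12521 (74.1%) had no overlap between the 3 and 3 libraries, whether called or not. Under library totals 12845 (76.1%) were called. With so many calls, a share of members near these percentages says nothing particular about a list.

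How many genes counted as higher depended on the scaling, and the libraries with neither nutrient held more of their counts in a few genes. The 10 most counted genes held 12.4% ± 0.0466 of the counts there and 7.08% ± 0.0132 with glutamine (SD, n = 3 each). The cytosolic heat shock list alone held 9.39% ± 0.0472 against 2.43% ± 0.0081. TMM scaling, which sets most genes near no change, gave factors of 0.793 to 0.794 with neither and 1.006 to 1.009 with glutamine. Under library totals without these factors the median log2 change of all genes moved from 0.02 to 0.37, a shift of 0.34, with 9531 genes (56.4%) called higher and 3314 (19.6%) lower. In all, 6254 genes were called higher and 3314 lower under both scalings, and 865 (5.12%) were called in opposite directions. Each log2 change below is the TMM value with its standard error (SE) from the fit, and the value under library totals follows where it bears on a statement.

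**Figure D1:**
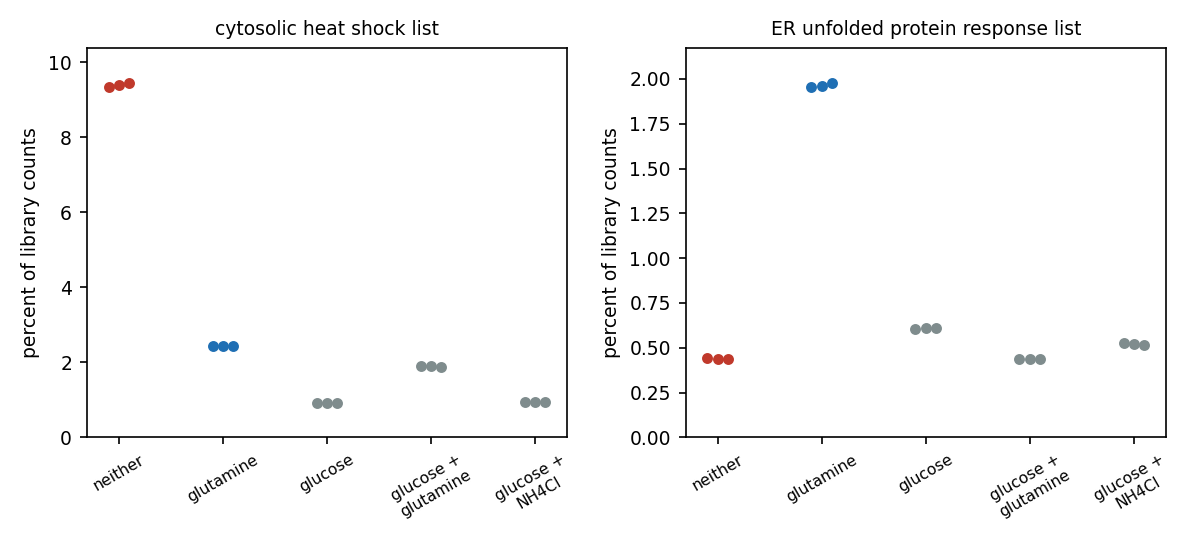
Share of all counts of a library held by the cytosolic heat shock list (left) and by the ER unfolded protein response list (right), in percent, for each of the 15 libraries by medium. Heat shock genes held 9.39% with neither nutrient and 2.43% with glutamine alone, and ER genes held 0.439% and 1.96%.

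Library totals ran from 15997566 to 18816188 counts with neither and from 16290419 to 19938691 with glutamine, so that 3 counts corresponded to 0.15 to 0.188 CPM (counts scaled to library size). Replicate 2 with neither stood apart, with counts in 28337 genes against 24219 and 24425 in its fellows. Without it, and without the 2 other libraries of the series that held the most genes with a count (35114 and 33716), 11904 genes were called. The epithelial keratin genes KRT8 and KRT18 and the mesenchymal VIM were present in all 6 libraries, KRT8 at 562 ± 12.9 and 337 ± 4.68 CPM with neither and with glutamine. EPCAM had at most 16 counts in a library. Markers of leukocytes, fibroblasts and endothelium summed to 268 to 381 counts per library. Bulk RNA cannot tell fewer cells of a kind from less RNA per cell. The share of falls also went with level. Of 319 genes with a mean over 500 CPM 260 (81.5%) fell and 49 rose under TMM, with a median of -0.48, and -0.14 under library totals. Of 4281 genes from 50 to 500 CPM 2537 (59.3%) fell and 1319 rose, with medians of -0.21 and 0.14. Lists of abundant genes are to be read against these shares as well.

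**Figure D2:**
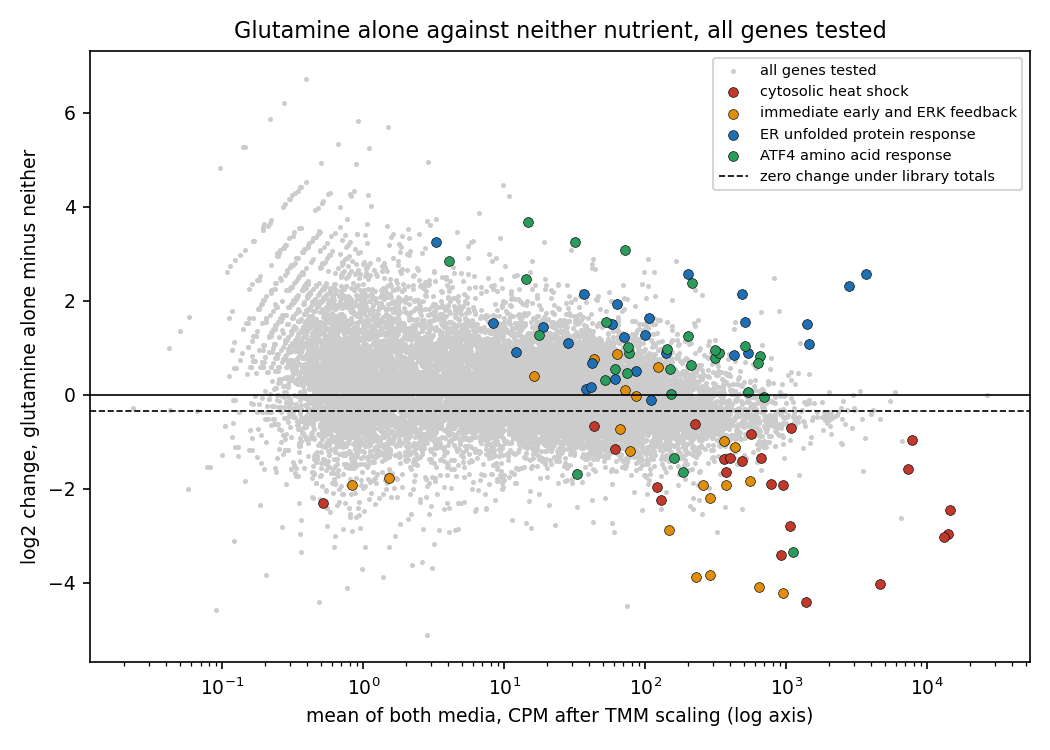
Log2 change with glutamine alone minus neither nutrient (vertical axis) against the mean level over both media in CPM after TMM scaling (log axis), for the 16889 genes tested, with members of 4 gene lists coloured. The dashed line at -0.34 is zero change under library totals, and the heat shock members all lie below it.

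All 24 measured members of the cytosolic heat shock list (25 listed) fell under both scalings, with a median log2 change of -1.77, or -1.43 under library totals, against 0.02 and 0.37 over all genes. Among the HSP70 genes, HSPA6 (ENSG00000173110, chromosome 1, 161524540 to 161526910, GRCh38) stood at 2563, 2673 and 2653 CPM in the libraries with neither nutrient. With glutamine the same gene stood at 126, 126 and 120.3 CPM. The groups lie far apart, with a log2 change of -4.41 ± 0.023 (adjusted p = 3.09e-180, quasi-likelihood test). HSPA1A and HSPA1B, the stress-induced HSP70 pair whose transcripts are nearly identical, are uncertain one by one, so their counts were also summed. The sum fell from 48579 ± 582 to 6049 ± 21.8 CPM (SD, n = 3 each), a log2 change of -3.01. HSPA8, the constitutive HSP70, fell less, from 11124, 10794 and 11018 to 3676, 3668 and 3724 CPM (-1.57 ± 0.014). HSPA7 is a pseudogene copy of HSPA6 and cannot be told apart from it with certainty. It showed a log2 change of -4.49 ± 0.083.

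Partners of HSP70 fell as well. DNAJB1, the HSP40 that hands clients to HSP70 (chromosome 19, 14514770 to 14529770), had 8725, 8781 and 8811 CPM with neither and 531, 529.6 and 543 CPM with glutamine. No library of one medium came near those of the other, and the log2 change was -4.04 ± 0.016. BAG3, which couples HSP70 to selective autophagy, went from 1670.2, 1652 and 1673 to 151, 160 and 156 CPM, again without overlap (-3.42 ± 0.023). HSPH1, a nucleotide exchange factor for HSP70, fell by 1.92 on the log2 scale. The inducible HSP90 gene HSP90AA1 (chromosome 14, 102080738 to 102139699) was at 24784, 24495 and 24654 CPM with neither and at 4471, 4534 and 4495 CPM with glutamine (-2.45 ± 0.012). The 6 HSP90 cochaperones fell with a median of -1.36. Both heat shock factors measured, HSF1 and HSF2, fell with a median of -0.65, and -0.30 under library totals.

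The chaperones of other compartments did not move as a block. The 8 subunits of TRiC, the ring-shaped chaperonin that folds actin and tubulin, fell under both scalings (median -0.90 and -0.55). TCP1 (-1.03 ± 0.017) and CCT2 (-1.01 ± 0.020) led. All 8 had a mean over 500 CPM, a level at which 81.5% of genes fell under TMM. The medians of all genes at that level were -0.48, and -0.14 under library totals. Of 9 chaperones and proteases of mitochondria 6 fell and 2 rose under TMM, and 5 fell and 3 rose under library totals. HSPE1, which encodes the lid of the mitochondrial chaperonin, fell (-1.76 ± 0.039), as did HSPD1, its barrel (-0.84 ± 0.016). HSPA9, the mitochondrial HSP70, rose (0.46 ± 0.017), as did the protease gene LONP1 (0.46 ± 0.030).

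Promoter sequence is shown for 4 heat shock genes because the members moved together and HSF1 reads a known motif of repeated GAA units. RefSeq windows (GRCh38.p14) from 250 bases before to 50 bases after a start were matched by symbol for 22 of the 25 listed genes, some with several starts. The letters GAANNTTC on either strand were found in 12 of these 22 (54.5%) and in 8.21% of all 27305 genes with a window. A run of 3 units that alternate between GAA and TTC with 2 bases between them, which contains the shorter motif, was found in 7 of 22 (31.8%) against 0.608% of all. That longer form was added after the shorter one had been searched. The 4 stretches, 100 bases each and read 5′ to 3′ toward the gene, have the motif in capitals.
HSPA6: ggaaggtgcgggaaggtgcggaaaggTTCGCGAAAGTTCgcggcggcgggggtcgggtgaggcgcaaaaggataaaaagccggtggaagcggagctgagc
DNAJB1: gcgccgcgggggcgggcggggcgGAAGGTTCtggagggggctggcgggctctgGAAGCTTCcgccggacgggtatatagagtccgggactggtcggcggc
HSP90AA1: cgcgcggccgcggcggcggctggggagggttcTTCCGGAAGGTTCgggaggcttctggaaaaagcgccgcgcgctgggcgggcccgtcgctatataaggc
CHORDC1: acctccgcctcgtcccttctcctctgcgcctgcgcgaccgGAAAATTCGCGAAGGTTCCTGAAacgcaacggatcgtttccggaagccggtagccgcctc
They lie at chr1:161524440-161524539 (plus strand), chr19:14518398-14518497 (minus), chr14:102087065-102087164 (minus) and chr11:90223050-90223149 (minus). In HSPA6, DNAJB1 and CHORDC1 the last base shown is the one just before the start. CHORDC1, which encodes an HSP90 cochaperone, holds 3 overlapping matches and fell from 193 ± 6.72 to 49.2 ± 1.05 CPM (-1.97 ± 0.036). Members without the 2-unit letters fell too: the 10 tested had a median of -1.36, and the 11 with them a median of -2.45. A match is a description of letters and not a binding site.

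**Figure D3:**
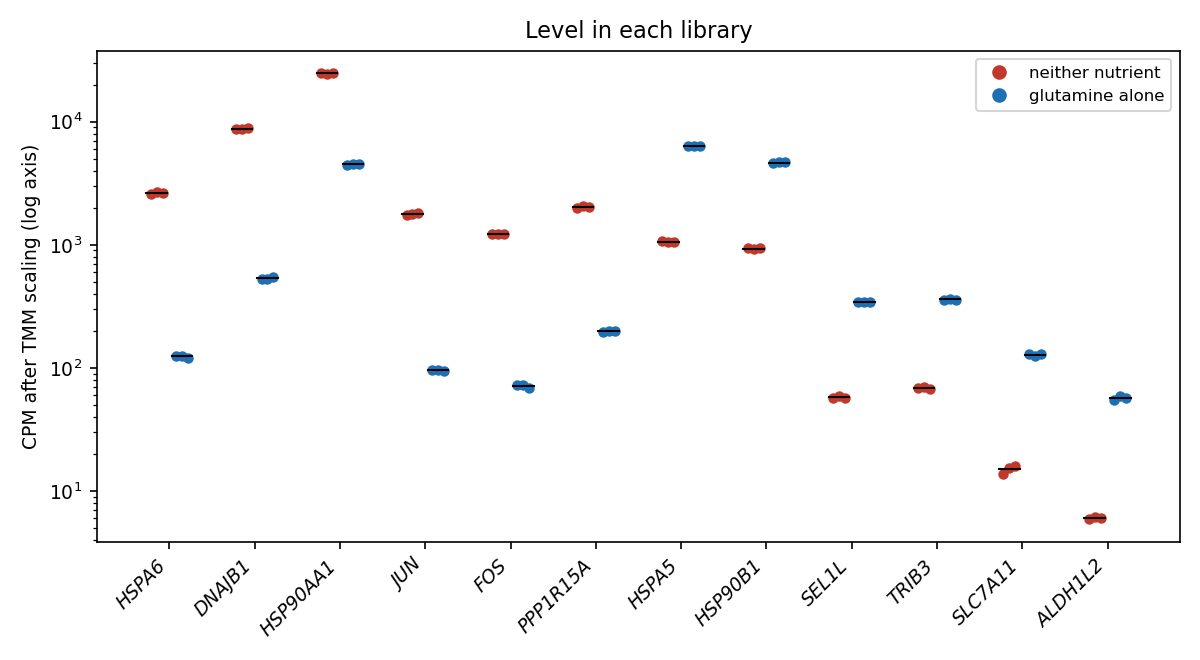
Level of 12 genes in each library, in CPM after TMM scaling on a log axis, for neither nutrient (red) and glutamine alone (blue), with a bar at each mean of 3 libraries. Heat shock and immediate early genes lie higher with neither, ER and amino acid genes lie higher with glutamine, and no gene shown has overlapping groups.

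Immediate early genes, which are transcribed within minutes of growth factor or stress signalling, were also lower with glutamine. Of 21 measured members of the list of immediate early and ERK feedback genes (22 listed) 15 fell and 5 rose under TMM, and 15 fell and 6 rose under library totals (median -1.77 and -1.43). All 5 FOS and JUN family members fell. JUN (chromosome 1, 58780788 to 58784327), a subunit of the AP-1 factor, had 1759.9, 1779 and 1815 CPM with neither and 95.8, 96.4 and 93.7 CPM with glutamine. FOS, its partner (chromosome 14, 75278774 to 75282230), had 1218, 1216 and 1214 and 72.5, 73.1 and 68.1 CPM. Both genes kept a wide gap between media, with log2 changes of -4.23 ± 0.025 and -4.09 ± 0.028. FOSB fell by 3.88 and DUSP1, a phosphatase gene that ends JNK and p38 signalling, by 3.84.

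EGR1, a zinc-finger factor gene driven by the serum response factor, fell from 595 ± 8.13 to 158 ± 3.82 CPM (-1.92 ± 0.026). Its promoter is shown because it holds 2 copies of the serum response element in capitals, at chr5:138465359-138465438 on the plus strand.
EGR1: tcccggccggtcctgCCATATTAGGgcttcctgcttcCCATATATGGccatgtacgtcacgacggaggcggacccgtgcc
The element was found in 2 of the 16 listed genes with a window (12.5%) and in 1.60% of all. The feedback group split. DUSP6 and SPRED1, brakes on the ERK pathway, rose by 0.87 and 0.75, as did SPRY4 and SPRED2, which complete the 4 of 7 feedback genes that rose and were named after their values were seen. The change of SPRED2 (0.10) was not called without glutamine replicate 1 (0.08), without neither replicate 2 (0.09) or with DESeq2 (0.07). IER2 was at 86.9 ± 4.12 and 84.5 ± 3.64 CPM and was not called under TMM (-0.04 ± 0.036, adjusted p = 0.349, quasi-likelihood test).

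The unfolded protein response of the ER went the other way. Of its 27 measured members 26 rose and 1 fell under TMM, and 27 rose under library totals, with medians of 1.26 and 1.61. Their share of all counts was 0.439% ± 0.00219 with neither and 1.96% ± 0.0112 with glutamine (SD, n = 3 each). HSPA5 (ENSG00000044574, chromosome 9, 125234853 to 125241330), the chaperone also called BiP, stood at 1067, 1057 and 1060.2 CPM with neither and at 6328, 6319 and 6359.9 CPM with glutamine. The libraries of each medium lie close together and far from those of the other, and the log2 change was 2.58 ± 0.015 (adjusted p = 2.29e-196, quasi-likelihood test). HSP90B1, the HSP90 of the ER (chromosome 12, 103930107 to 103953645), went from 940.2, 921 and 932 to 4592, 4664 and 4674 CPM (2.32 ± 0.016). All 11 chaperone genes and all 4 genes of disulfide isomerases and their oxidase rose, with medians of 1.5 and 1.21.

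The arm that removes misfolded proteins from the ER rose in 7 of 8 members. SEL1L, scaffold of the ubiquitin ligase at the ER membrane (chromosome 14, 81471549 to 81533861), stood at 56.9, 58.7 and 57.2 CPM with neither and 343, 343 and 346 CPM with glutamine. Its libraries do not overlap between media, and it changed by 2.58 ± 0.034. SYVN1, the ligase that SEL1L holds, rose by 2.14. DERL1, a channel component, was the only member called lower, from 114 ± 3.42 to 106 ± 1.03 CPM (-0.11 ± 0.033), and it was called higher under library totals (0.23). Sensor genes rose less, with a median of 0.90 over ERN1, ATF6 and EIF2AK3, and the transcript of the factor XBP1 rose by 0.50. Counts per gene do not show the spliced form of XBP1. HERPUD1, which recruits the degradation complex, rose by 0.88.

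Windows were matched for 24 of the 27 ER genes. The ER stress element, CCAAT and then CCACG with 9 bases of any kind between them, is read by ATF6 together with NF-Y. It was found on either strand in 8 of these 24 (33.3%) and in 25 of all 27305 genes with a window (0.0916%). HSPA5, HSP90B1, CRELD2 and CALR are shown because they are among the 8, with the element in capitals.
HSPA5: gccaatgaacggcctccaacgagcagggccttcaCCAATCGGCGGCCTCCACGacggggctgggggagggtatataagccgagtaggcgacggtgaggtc
HSP90B1: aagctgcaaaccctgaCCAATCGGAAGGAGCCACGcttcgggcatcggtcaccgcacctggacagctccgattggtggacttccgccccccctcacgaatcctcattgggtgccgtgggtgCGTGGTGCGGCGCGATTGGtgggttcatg
CRELD2: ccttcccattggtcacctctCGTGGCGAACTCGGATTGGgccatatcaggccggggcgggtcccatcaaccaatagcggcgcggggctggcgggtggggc
CALR: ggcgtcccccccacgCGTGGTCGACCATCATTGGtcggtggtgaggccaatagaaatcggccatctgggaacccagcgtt
The stretches lie at chr9:125241344-125241443 (minus strand), chr12:103930200-103930349, chr22:49918534-49918633 and chr19:12938369-12938448 (plus strand). HSP90B1 holds the element 2 times, once on each strand. CALR, a lectin chaperone gene, rose by 1.5, and CRELD2, a secreted ER factor gene, by 1.93. The 16 tested members with a window and without these letters rose as well (16 of 16, median 1.25), against 8 of 8 with a median of 1.52. The difference between these sets was not tested.

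Genes of the ATF4 amino acid response mostly rose. Of 30 measured members (31 listed) 24 rose and 5 fell under TMM, and 26 rose and 4 fell under library totals, with medians of 0.86 and 1.2. All 7 amino acid enzymes and all 3 secreted factors rose. ALDH1L2, a mitochondrial folate enzyme gene (chromosome 12, 105019784 to 105084577), had 5.9, 6.18 and 6.06 CPM with neither and 54.9, 59.4 and 56.7 CPM with glutamine. SLC7A11, the cystine and glutamate exchanger (chromosome 4, 138164097 to 138242349), had 13.8, 15.5 and 16 and 129, 126 and 129 CPM. Both genes were low in every library with neither and showed log2 changes of 3.24 ± 0.095 and 3.09 ± 0.058. SLC6A9, a glycine transporter gene, rose most in the list, from 2.21, 2.42 and 1.73 to 28.7, 27.3 and 26 CPM (3.68 ± 0.16). GDF15, a secreted stress cytokine, rose by 2.47.

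The ATF4 transcript itself changed little, from 523 ± 7.84 to 544 ± 8.33 CPM (0.06 ± 0.021, adjusted p = 0.0114, quasi-likelihood test), with 0.40 under library totals. That call was lost without glutamine replicate 1 (0.04), without neither replicate 2 (0.04) and with DESeq2 (0.03). ATF4 is controlled in large part at translation, which counts of RNA do not show. TRIB3, a pseudokinase gene that ATF4 and CHOP induce, was at 68.9, 70.2 and 67.2 CPM with neither and 356, 364 and 359 CPM with glutamine (2.39 ± 0.030). Every library with glutamine alone was above every library with neither nutrient. DDIT3, which encodes CHOP, rose by 0.62 and CHAC1, a glutathione-degrading enzyme gene, by 0.54. ASNS, the asparagine synthetase gene, rose from 10.3 ± 2.12 to 24.8 ± 1.32 CPM (1.26 ± 0.088). It has a pseudogene copy, so its counts are uncertain.

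Members that fell included PPP1R15A, whose product GADD34 removes phosphate from eIF2α. It stood at 1975, 2048 and 2042 CPM with neither and 196, 201 and 198 CPM with glutamine, a change of -3.35 ± 0.021 in the direction of the heat shock and immediate early genes. The stress factor genes ATF3 (-1.66 ± 0.030) and ATF5 (-1.68 ± 0.063) fell too. The 4 that fell under both scalings were these 3 and DDIT4, an inhibitor of mTORC1 named because of that count. SLC3A2 was called lower under TMM (-0.05) and higher under library totals (0.29), and its TMM call was lost without glutamine replicate 1 or 3 or neither replicate 2 or 3 (-0.05, -0.05, -0.04 and -0.05). SLC1A5, the main glutamine importer, was at 151 ± 3.14 and 154 ± 2.25 CPM and was not called under TMM (adjusted p = 0.489, quasi-likelihood test).

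Cytosolic aminoacyl-tRNA synthetases, which load tRNAs with amino acids, split into those that rose and those that fell. Of 20 measured, 12 rose and 7 fell under TMM, and 14 rose and 6 fell under library totals (median 0.23 and 0.58). AARS1, for alanine (chromosome 16, 70252295 to 70289543), stood at 299.6, 299 and 298 CPM with neither and 1002, 1017 and 1031 CPM with glutamine (1.77 ± 0.020). The other leading rises were WARS1 (1.55 ± 0.023), CARS1 (1.01 ± 0.035) and SARS1 (0.93 ± 0.023), for tryptophan, cysteine and serine. HARS1 and FARSA, for histidine and a phenylalanine subunit, fell (-0.79 ± 0.031 and -0.77 ± 0.032). QARS1, for glutamine, was at 212 ± 3.88 and 211 ± 3.52 CPM and was not called under TMM (-0.01 ± 0.027), with 0.33 under library totals.

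Promoter windows of both lists were searched for the letters TGATGNAA, the amino acid response element that ATF4 binds with C/EBP partners. They were found on either strand in 7 of 16 synthetase genes with a window (43.8%), in 9 of 25 ATF4 list genes (36.0%) and in 4.46% of all. The 7 synthetase genes with the letters, AARS1, CARS1, GARS1, IARS1, MARS1, NARS1 and TARS1, all rose, with a median of 0.78. TARS1 had the smallest change (0.06), which was not called without glutamine replicate 2 (0.05) or with DESeq2 (0.03). Of the 9 without them 3 rose and 5 fell, with a median of -0.42. The 3 that rose without them were EPRS1, SARS1 and WARS1. The difference between genes with and without the letters was not tested. In the ATF4 list the medians lay the other way: 5 of 8 tested genes with the letters and 13 of 16 without rose, with medians of 0.66 and 0.75. AARS1, CHAC1 and ASNS are shown, with the letters in capitals.
AARS1: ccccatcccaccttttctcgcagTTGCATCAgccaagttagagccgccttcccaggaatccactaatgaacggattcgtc
CHAC1: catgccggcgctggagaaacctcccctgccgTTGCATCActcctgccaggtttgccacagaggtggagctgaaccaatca
ASNS: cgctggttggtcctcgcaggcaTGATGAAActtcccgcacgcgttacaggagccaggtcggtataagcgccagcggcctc
They lie at chr16:70289637-70289716 (minus strand), chr15:40953231-40953310 (plus) and chr7:97872419-97872498 (minus), each stretch ending before the start. These genes were picked for printing with their changes known.

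Genes that handle glutamine itself did not move in one direction. Of 21 measured members 9 rose and 9 fell under TMM, and 12 rose and 7 fell under library totals. GLUL, glutamine synthetase, was at 72 ± 1.83 and 58.1 ± 1.58 CPM, called lower under TMM (-0.31 ± 0.041) and not called under library totals (0.03). PYCR1, which makes proline from glutamate, rose from 86.1 ± 1.87 to 223 ± 0.787 CPM (1.37 ± 0.032). GOT1, the cytosolic aspartate transaminase gene, rose by 1.07 and GFPT1, which takes the amide nitrogen of glutamine into amino sugars, by 1.09. CTPS1, which takes it into cytidine triphosphate, fell by 0.91.

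Sterol and fatty acid genes did not move as a block, and several changed sign with the scaling. Of 21 cholesterol synthesis enzymes 13 fell and 4 rose under TMM, and 11 fell and 8 rose under library totals (median -0.44 and -0.09). ACAT2 and IDI1 fell most (-1.29 ± 0.037 and -1.27 ± 0.040), while LSS and TM7SF2 rose (0.37 ± 0.035 and 0.58 ± 0.085). HMGCS1, an early enzyme of the pathway, was at 71.1 ± 3.52 and 74.3 ± 3.49 CPM and was not called under TMM (0.06 ± 0.037, adjusted p = 0.136, quasi-likelihood test). INSIG1, which retains the SREBP complex in the ER (chromosome 7, 155297776 to 155310235), had 168, 164 and 167 CPM with neither and 44.3, 49.5 and 46.7 CPM with glutamine (-1.82 ± 0.037). No library of one medium overlapped those of the other. STARD4 and INSIG2 of the list of sterol uptake and SREBP control rose by 1.01 and 0.81, and 7 of its 11 members rose under TMM.

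FASN, the fatty acid synthase gene (chromosome 17, 82078333 to 82098332), was at 549.6, 555 and 546 CPM with neither and 437, 450.4 and 445 CPM with glutamine. That is a fall of 0.31 under TMM and a change of 0.04 under library totals that was not called. SCD, the stearoyl-CoA desaturase gene, was called lower under TMM (-0.16 ± 0.016) and higher under library totals (0.18). SREBF1 was not called under TMM (-0.02 ± 0.032) and was called higher under library totals (0.32). Of 20 fatty acid and glycerolipid genes 14 fell and 5 rose under TMM, but 6 fell and 12 rose under library totals (median -0.19 and 0.16), so no direction is given for that list. FADS1 and ACLY fell under both (-0.70 ± 0.030 and -0.69 ± 0.026), and GPAM rose under both (0.65 ± 0.079).

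Proliferation genes were lower with glutamine alone. All 24 DNA replication genes and all 20 mitosis genes fell under TMM, with medians of -1.05 and -0.85. Under library totals 21 and 18 of them fell and 2 in each list rose (medians -0.70 and -0.51). PCNA, the sliding clamp of DNA polymerase (chromosome 20, 5114953 to 5126626), went from 217, 208 and 217 to 69.6, 68.1 and 67.8 CPM (-1.64 ± 0.033). All libraries with glutamine were below those with neither. MCM10, which activates the replicative helicase, and MCM3, one of its subunits, fell by 1.62 and 1.51, MKI67, the proliferation marker, by 1.08, and the mitotic genes BIRC5 and AURKA by 1.5 and 1.45. In nucleotide synthesis 13 of 18 genes fell and 4 rose (10 and 7 under library totals). The 6 deoxynucleotide genes, such as RRM2 of ribonucleotide reductase (-1.61 ± 0.029) and TK1 (-1.53 ± 0.032), fell under both scalings, while the purine gene GART rose (0.22 ± 0.024).

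Respiratory genes of the nucleus and of the mitochondrial genome moved in opposite directions. Of 38 nuclear-encoded subunits 36 fell and 1 rose under TMM, and 34 fell and 3 rose under library totals (median -0.71 and -0.37). Every member of complexes II, III and IV and of the ATP synthase fell under both scalings. ATP5MC1, a gene for the c ring of the ATP synthase, fell by 1.71 and NDUFB3 of complex I by 1.54. NDUFS1 rose (0.17 ± 0.030). Of the 13 protein genes on mitochondrial DNA 11 rose and 2 fell under TMM, and 12 rose and 0 fell under library totals (median 0.47 and 0.81). MT-CYB, cytochrome b (the mitochondrial chromosome, 14747 to 15887), had 201, 199.7 and 203 CPM with neither and 359, 354 and 338 CPM with glutamine (0.80 ± 0.024), without overlap. MT-ND4 and MT-ND4L, which overlap on the genome, were called lower under TMM (-0.32 ± 0.021 and -0.15 ± 0.048), while under library totals MT-ND4 was not called and MT-ND4L was called higher. MT-ND4L was not called without neither replicate 1 (-0.11). Of library totals, without TMM factors, the whole mitochondrial chromosome held 0.766% ± 0.0142 with neither and 0.909% ± 0.0228 with glutamine. The TMM factors were lower with neither (0.793 to 0.794) than with glutamine (1.006 to 1.009), so this difference does not carry over to TMM values. Under library totals the median log2 change of all genes was 0.37. The share also takes in mitochondrial genes beyond the 13 protein genes. Selection by poly(A) tail bears on mitochondrial transcripts, and nuclear copies of mitochondrial DNA can share their reads, which makes single values uncertain.

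Of 20 genes of the citric acid cycle 17 fell and 2 rose under TMM (12 and 4 under library totals). SDHD and SUCLG1 led (-1.0 ± 0.037 and -0.93 ± 0.037). Of the 20, 15 had a mean of 50 to 500 CPM, a level at which 59.3% of genes fell under TMM. PC, pyruvate carboxylase, rose (0.28 ± 0.092). Of 22 glycolysis genes 18 fell and 2 rose under TMM, and 14 fell and 5 rose under library totals (median -0.63 and -0.29). Of these 22, 8 had a mean over 500 CPM and 10 a mean of 50 to 500 CPM, levels at which most genes fell under TMM. LDHA, the lactate dehydrogenase A gene, fell from 994 ± 15.3 to 328 ± 7.07 CPM (-1.60 ± 0.020), and PGAM1 by 1.28. HK2, the inducible hexokinase gene, rose by 0.50, and SLC2A1, the glucose transporter GLUT1, by 0.12. In hexosamine and N-glycan synthesis 8 of 20 rose and 8 fell under TMM, and 18 rose and 2 fell under library totals.

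The proteasome fell in all 31 measured subunits under both scalings (median -0.93 and -0.58), 14 of the core and 17 of the cap. PSMC4 (-1.34 ± 0.022) and PSMB3 (-1.26 ± 0.031) led. Of the 31, 24 had a mean of 50 to 500 CPM, a level at which 59.3% of genes fell under TMM. The medians of all genes at that level were -0.21, and 0.14 under library totals. Of 72 cytosolic ribosomal protein genes 70 fell and 1 rose under TMM, with a median of -0.50, and -0.16 under library totals, where 60 fell and 5 rose. Of the 72, 62 had a mean over 500 CPM, and the medians of all genes at that level were -0.48 and -0.14, so the fall of this list was close to that of other abundant genes. The member that rose was RPS10, at 1.19 and 2.05 CPM, which shares its locus with a read-through gene and is uncertain. RPL38 fell most (-0.79 ± 0.022). Splicing factors of the SR family and their kinases fell in 13 of 13 under TMM and in 9 of 13 under library totals. The kinase gene CLK1 was at -1.92 ± 0.032 and SRSF3 at -1.42 ± 0.021. Of these 13, 11 had a mean of 50 to 500 CPM. Of 12 genes often used as reference 11 fell under TMM and 8 under library totals, and 4 of the 12 had a mean over 500 CPM and 7 a mean of 50 to 500 CPM. Of these ACTB, β-actin, fell from 5255 ± 33.2 to 1699.5 ± 25.2 CPM (-1.63 ± 0.015).

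NRF2 targets, which defend against oxidants, rose in 12 of 16 under both scalings, with 4 lower under TMM and 2 under library totals. TXNRD1, thioredoxin reductase, rose by 1.09 and FTH1, ferritin heavy chain, by 0.88. HMOX1, heme oxygenase, was at 582 ± 8.85 and 621 ± 7.94 CPM, a rise of 0.09. Of 39 genes of lysosomes and autophagy 12 were higher and 16 lower under TMM, and 25 and 8 under library totals. Over all genes 37.0% were higher and 35.8% lower under TMM, and 56.4% and 19.6% under library totals. The medians of the list, 0.01 and 0.35, were also close to the 0.02 and 0.37 of all genes, so no direction is given for it. Among the 14 autophagy genes of the list 5 were higher and 4 lower under TMM (median 0.03), and 10 and 4 under library totals. WIPI1 and ULK1, which act at the start of autophagy, rose under both (1.59 ± 0.075 and 1.18 ± 0.055). The autophagy genes ATG4A, UVRAG and GABARAPL2 fell under TMM (-1.04, -0.92 and -0.85), as did the hydrolase gene GLA (-1.17). Interferon-response genes fell in 9 of 12 under TMM and in 7 under library totals, such as OAS3 (-1.82 ± 0.070) and PSMB9 (-1.90 ± 0.14). Among cell death genes TNFRSF10B, the death receptor DR5, rose from 56.4 ± 0.913 to 152 ± 5.00 CPM (1.43 ± 0.036), and BAX fell by 0.62. NEAT1, the long noncoding RNA that builds paraspeckles (chromosome 11, 65422774 to 65445540), stood at 40.9, 37.6 and 42 CPM with neither and 289.8, 289 and 294 CPM with glutamine (2.85 ± 0.033), with no overlap.

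The largest rise by the naming rule lay outside the lists. ZNF469, a zinc-finger gene in which mutations cause brittle cornea syndrome (chromosome 16, 88427471 to 88440757), was at 0.603, 1.09 and 0.866 CPM with neither and 18.2, 18.2 and 19.4 CPM with glutamine (4.45 ± 0.25). EPAS1, which encodes the hypoxia factor HIF-2α (chromosome 2, 46293667 to 46386703), went from 1.67, 1.95 and 1.34 to 18, 16.2 and 16.3 CPM (3.34 ± 0.18). Both genes were under 2 CPM with neither nutrient and reached the rule's mean of 5 CPM only through the libraries with glutamine. The naming rule takes only genes whose libraries do not overlap, so their gap was a condition of the choice. CRELD1, a membrane relative of CRELD2, rose by 3.09 and SLC26A1, a sulfate transporter gene, by 3.88. EPAS1 was on the hypoxia list, of whose 12 measured members 5 rose and 6 fell under TMM and 7 rose and 3 fell under library totals, and ADM, adrenomedullin, fell by 2.21. SLC9A3-AS1 (4.23), GTF2IP13 (3.24) and CICP14 (3.16) also rose, the first an antisense transcript whose reads depend on strand-specific counting and the others pseudogenes that share sequence, so these values are uncertain. Among falls, NOCT, the circadian gene nocturnin, dropped from 107 ± 3.95 to 14 ± 0.394 CPM (-2.93 ± 0.062).

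Glutamine alone was also set against glucose alone in the same fit. For this difference the libraries with neither counted only through the filter, the scaling and the estimate of spread. The contrast shares the 3 libraries with glutamine with the comparison above. It called 11226 genes (66.5% under either scaling), 5650 (33.5%) higher with glutamine and 5576 (33.0%) lower, and 4574 (27.1%) and 6655 (39.4%) under library totals. Of the heat shock list 22 of 24 were higher with glutamine than with glucose and 1 was lower (21 and 1 under library totals, median log2 difference 1.1 and 1.01). HSPA1A was at 3181 ± 29.6 CPM with glutamine and 66.1 ± 2.69 CPM with glucose (5.59 ± 0.019), and DNAJB1 at 535 ± 7.24 and 154 ± 3.06 CPM (1.80 ± 0.019). Both genes with glutamine alone lay between their levels with neither nutrient and with glucose. ER genes were higher with glutamine than with glucose in 23 of 27 and lower in 3 under both scalings (median 1.39 and 1.30). HSPA5 was at 2334 ± 31.4 CPM with glucose (1.44 ± 0.015) and HSP90B1 at 673 ± 14.6 CPM (2.79 ± 0.016).

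The ATF4 list was lower with glutamine than with glucose in 19 of 30 and higher in 8 (20 and 3 under library totals, median -0.26 and -0.35). TRIB3 was at 655 ± 5.09 CPM with glucose alone (-0.86 ± 0.022) and SLC7A11 at 279 ± 4.78 CPM (-1.12 ± 0.029). SLC6A9 had nearly the same level in both media, with a log2 difference below 0.01 in size and an SE of 0.065 (adjusted p = 0.998, quasi-likelihood test). A miss of the threshold does not show equal levels. HMOX1 was far lower with glucose alone, at 49.4 ± 1.75 CPM (3.65 ± 0.031), and FASN was at 179 ± 3.02 CPM (1.31 ± 0.021). Mitosis genes were lower with glutamine than with glucose in 18 of 20 and higher in 2 under both scalings, and MKI67 differed by -1.1 ± 0.022. DNA replication genes were higher in 17 of 24 and lower in 3 (14 and 6 under library totals).

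Whether cells responded to glutamine alike with and without glucose was tested by the interaction of both nutrients, which called 12635 genes (74.8%; 36.8% positive and 38.0% negative), and 12820 (75.9%; 25.6% and 50.3%) under library totals. It shares the 6 libraries of the main comparison. Its value is the log2 change with glutamine in the presence of 5 mM glucose minus the change in its absence. It was positive for all 24 heat shock genes under both scalings (median 2.59), whose response had a median of -1.77 without glucose and 0.98 with it. For the ER list it was negative in 26 of 27 genes under TMM and in 27 under library totals (median -1.21). The response of the ER list had a median of 1.26 without glucose and -0.15 with it. For the ATF4 list the interaction was negative in 28 of 30 (median -3.24), and the response had a median of -2.76 with glucose. HSPA5 changed by 2.58 ± 0.015 without glucose and by -2.04 ± 0.016 with it, and HSP90B1 by 2.32 ± 0.016 and 0.23 ± 0.017. For FASN the values were -0.31 ± 0.020 and 3.52 ± 0.020, and for INSIG1 -1.82 ± 0.037 and 3.39 ± 0.039. FOS fell in both settings, by 4.09 without glucose and 1.83 with it.

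**Figure D4:**
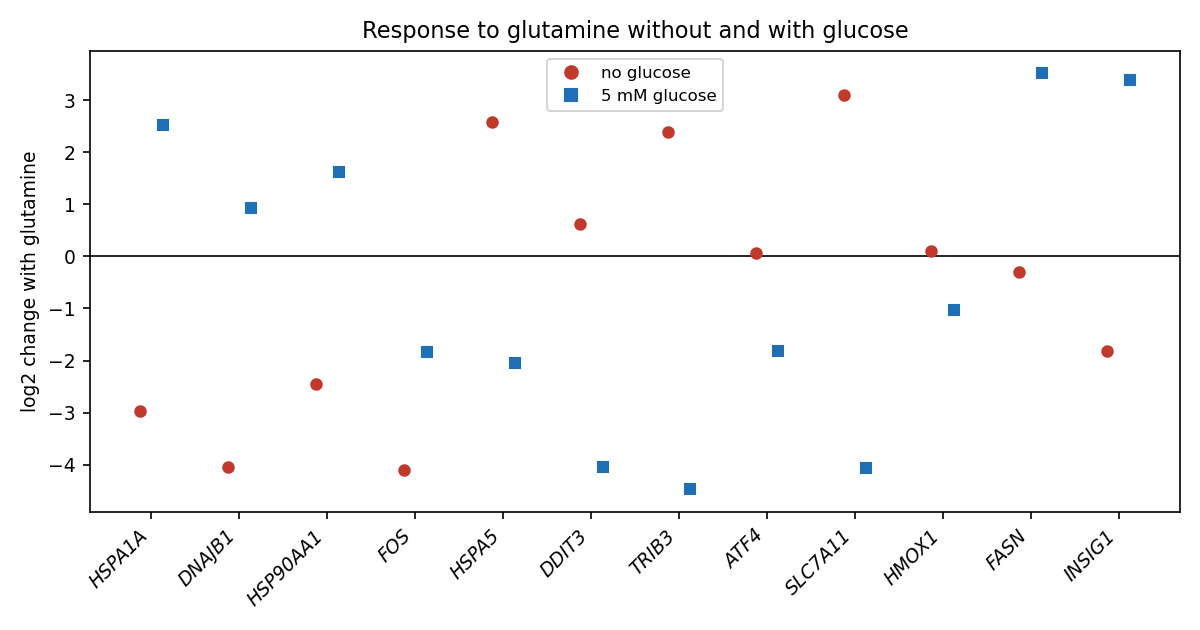
Log2 change with 4 mM glutamine (vertical axis, TMM) of 12 genes in medium without glucose (red circles) and with 5 mM glucose (blue squares), with bars of 1 standard error that are mostly smaller than the symbols. HSPA1A, DNAJB1, HSP90AA1, FASN and INSIG1 were lower with glutamine without glucose and higher with it (FASN without glucose was not called under library totals, 0.04). HSPA5, DDIT3, TRIB3, ATF4, SLC7A11 and HMOX1 did the reverse. Without glucose the rises of ATF4 (0.06) and HMOX1 (0.09) were small and were not called against a 1.2-fold change under TMM. The ATF4 call was also lost without glutamine replicate 1, without neither replicate 2 and with DESeq2.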

How the data were processed

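RNA was selected by poly(A) tail and made into libraries with a directional kit, per the labels' protocols. The authors deposited raw read counts per gene for all 15 libraries. Per the submitters' processing notes, the tools were HISAT2 2.1.0, Subread 1.5.1 and featureCounts and the build was GRCh38.p12, with no roles stated. Not given in the sources used here: whether counting used strand, and how it treated reads with several matches. Of 58395 gene IDs 58275 matched GENCODE 29 (Ensembl 94) and 120 did not.

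Counts of all 15 libraries were fitted in edgeR 4.0.16 (R 4.3.3) with a mean per medium, filterByExpr, TMM scaling and the robust quasi-likelihood F test, two-sided, with Benjamini-Hochberg adjustment over the 16889 genes kept. The same fit was made with library totals. CPM are scaled by TMM. The fit left 10 residual degrees of freedom and a biological coefficient of variation of 0.0221. The code was tested on simulated counts.

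Named genes were the 12 largest rises and 12 largest falls called under both scalings that averaged 5 CPM or more and whose groups did not overlap; in each list the 4 largest changes in the main direction and 2 in the other; a fixed panel; and members that did not pass. Other genes named were chosen after their values were seen: members that complete a count, sensors, factors and genes whose promoters are shown. The members and lists were chosen with earlier results of these data known. For the 12 largest rises and falls the lack of overlap was a condition of the rule and adds no support. Promoter windows are from RefSeq (GRCh38.p14), 27305 genes with 35116 windows. Alternatives were other scalings, filters and tests (DESeq2 1.42.0, a test against a 1.2-fold change), a replicate block and leaving out libraries. No library was left out of the main fit. Some members that the naming rule selects are not reported here.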

Additional observations from a re-analysis of the deposited data

Results flagged for a closer look

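The response to glutamine differed between medium with and without glucose in all 12 genes of a panel. The interaction of both nutrients was tested with edgeR's quasi-likelihood test, adjusted over all genes. It called 12635 of all 16889 genes (74.8%), and 75.9% under library totals, so 12 of 12 is to be read against that share. Each value is the log2 change with glutamine in 5 mM glucose minus that without glucose, and each rests on 3 libraries per medium. Among heat shock genes it was 5.51 ± 0.024 for HSPA1A, 4.96 ± 0.025 for DNAJB1 and 4.07 ± 0.018 for HSP90AA1. FOS, which was lower with glutamine in both settings, had 2.26 ± 0.091. The ER chaperone HSPA5 had -4.62 ± 0.022.

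Genes of the ATF4 response had negative values, -4.67 ± 0.063 for DDIT3, -6.85 ± 0.045 for TRIB3, -1.88 ± 0.030 for ATF4 and -7.16 ± 0.076 for SLC7A11. HMOX1 had -1.13 ± 0.049. The lipid genes had positive values, 3.83 ± 0.028 for FASN and 5.21 ± 0.053 for INSIG1.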

How the results depend on the processing

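Scaling moved the split of calls most. Against neither nutrient, library totals gave 9531 genes higher and 3314 lower, and totals without the 20 most counted genes gave 8416 and 4178, where TMM gave 6254 and 6048. Tested against a 1.2-fold change, glutamine against glucose alone gave 6691 genes, 3305 higher and 3386 lower, and glutamine against neither 9158. Under library totals 11 named genes had the opposite sign: DERL1 0.23, FASN 0.036, GLUL 0.034, IER2 0.31, MT-ND4 0.027, MT-ND4L 0.19, QARS1 0.33, SCD 0.18, SLC3A2 0.29, SREBF1 0.32 and VIM 0.20. Without the 20 most counted genes these were DERL1 0.12, IER2 0.19, MT-ND4L 0.079, QARS1 0.22, SCD 0.066, SLC3A2 0.18, SREBF1 0.21 and VIM 0.084. The constant shift between scalings is in the construction of these alternatives. Of the 12302 calls, 11606 were made in the same direction by DESeq2's Wald test. Leaving out 1 library of the 6 gave 11802 to 11959 calls. Samples with the same replicate number showed no shared deviation (correlations 0, -0.0023 and -0.0299 over 9811 genes). That cannot show whether they shared a day or culture, which the labels do not say. The fit with the replicate block called 12270 genes, and 12251 calls of the main fit were kept in the same direction. Without the 3 libraries that held the most genes with a count, an alternative chosen after seeing the data, 11904 were called. Depth limits genes near the floor of 3 counts, 0.15 to 0.188 CPM.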

Other observations

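Classes of transcript had different medians, and under TMM different signs. Of 779 long intergenic noncoding RNA genes tested 342 were higher with glutamine and 112 lower under TMM (median log2 change 0.56), and 445 and 67 under library totals (0.89). Of 847 processed pseudogenes 121 were higher and 343 lower (-0.34), and 201 and 158 under library totals (-0.0025). Pseudogenes share sequence with their parent genes, so their counts are uncertain.

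At low levels most calls were rises. Of 5752 genes under 5 CPM 2093 were higher and 855 lower under TMM (median 0.34), and 2914 and 441 under library totals (0.67). The filter on low counts took all 15 libraries, so a gene of low level could pass through the medium where it was high. These counts are therefore a description of the genes kept, and the part of the filter in the surplus of rises was not tested. In this low range the median was 0.60 for 664 long intergenic noncoding RNA genes and 0.31 for 2780 protein-coding genes. The part of level in the difference between classes was not tested further.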
